A study of Mus musculus with 4 samples.

Results

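Endoderm transcription factors and primitive endoderm markers were examined in mouse embryonic stem cells (mESCs) with and without the clock gene Bmal1. The 10 genes were given by name and were found by matching Ensembl gene identifiers to symbols, from 37310 genes in the deposited table. They are the transcription factors Gata4, Gata6, Sox7, Sox17 and Foxa2, the receptors Pdgfra, Cxcr4 and Lrp2, the endocytic adaptor Dab2 and the proteoglycan Srgn. All libraries came from JM8 mESCs, a line of the C57BL6/N strain, kept undifferentiated on gelatin without feeder cells in serum-free 2i medium with LIF, where 1 µM PD0325901 inhibited Mek and 3 µM CHIR99021 inhibited Gsk3. The parental line gave 2 libraries (wild-type), and a derived line gave 2 libraries (Bmal1 -/-). Per the study, the Bmal1 -/- cells were a single clone made with CRISPR/Cas9, with insertions or deletions in both Bmal1 alleles. The loss of Bmal1 therefore cannot be told apart from other differences between the clone and its parental line. The libraries are described as biological replicates and numbered by experiment, 1 and 2 in each group, but whether they came from separate cultures is not given in the sources used here, and p-values measure only the spread between these libraries.

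Primitive endoderm is the layer that forms beside the pluripotent epiblast in the blastocyst and later gives rise to visceral and parietal endoderm. Fgf signalling through Mek favours its formation from inner cell mass cells, and Gata6, Sox17, Gata4 and Sox7 are switched on in an ordered way as these cells commit, with Pdgfra on their surface. Lrp2 and Dab2 then serve endocytosis in the differentiated layer, whereas Foxa2, Sox17 and Cxcr4 also mark definitive endoderm, which forms later from the epiblast. In naive mESCs these genes are expected to be low, and the Mek inhibitor in 2i medium acts on the pathway that favours primitive endoderm.

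The deposited values are read counts of each gene divided by a scaling factor of the library, and whole reads could be recovered from them. The wild-type libraries held 21737170 and 21504265 reads on genes, and those of Bmal1 -/- held 23329034 and 23021702. A normalized value of 1 stands for about 1 read, and 3 reads corresponded to values between 2.82 and 3.19. The spread between replicates exceeded counting error, as chi-square divided by its degrees of freedom was 2.95 between the wild-type libraries and 1.94 between those of Bmal1 -/-. The targeted gene Bmal1 carries the symbol Arntl in the annotation (ENSMUSG00000055116, mm9 chromosome 7 from 120350979 to 120457636, plus strand), and its normalized values were 678 and 733 in wild-type and 556 and 590 in Bmal1 -/- libraries. The groups did not overlap, and the Bmal1 -/- mean was 81.2% of the wild-type mean (log2 fold change −0.30, standard error 0.07, limma adjusted p = 0.0011). The value counts reads over the whole gene, where a short insertion or deletion need not remove the mRNA, so it does not check the labels, and Bmal1 -/- stands for the label throughout. The guide target is shown because it fixes where the mutated alleles differ. It matched NCBIM37 (mm9) at chr7:120424234-120424256 on the minus strand, within a coding exon (exon 5 of transcript Arntl-201), with the PAM in capitals.
Bmal1 guide target: gaaccggagagtaggtcggtGGG

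Differences between the groups were tested with limma on log2(value + 1) for the 14510 genes that averaged 10 or more across the 4 libraries, with p-values adjusted over all of them. This scale understates the fold change of low genes. The variance of each gene was moderated, so it came mostly from genes of similar level (18.12 prior degrees of freedom) and less from its own replicates. Of the 10 members, 7 passed the filter and 3 (Gata6, Foxa2 and Dab2) did not. Among the 7, Sox17, Lrp2 and Srgn were more than 2-fold higher in Bmal1 -/- libraries with an adjusted p under 0.05, where 5.75% of all genes tested did the same, and Sox7 was more than 2-fold lower, as were 1.45% of all genes tested. Gata4 also had an adjusted p under 0.05 but a smaller difference, which made 4 members higher and 1 lower, against 24% and 28.6% of all genes tested. Pdgfra and Cxcr4 did not pass. By the values alone, the groups did not overlap in 4 of these 7 that were higher and 1 that was lower, against 34.6% and 41.4% of all genes tested. Sox7 passed the filter through its wild-type libraries alone, as its Bmal1 -/- mean was 9.02. Dab2 lay just outside, with a mean over the 4 libraries of 9.83. In cell populations, fewer cells that express a gene and less RNA of it per cell cannot be told apart.

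Across all genes tested, 835 were more than 2-fold higher and 211 lower in Bmal1 -/- libraries, a split that was 608 and 377 with quantile normalization. With no fold threshold, 3488 genes were higher and 4151 lower, and this balance turned to 4200 and 3194 with equal library totals, so small differences of single genes are relative to the scaling chosen. The median log2 fold change of all genes tested was −0.03.

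**Figure D1:**
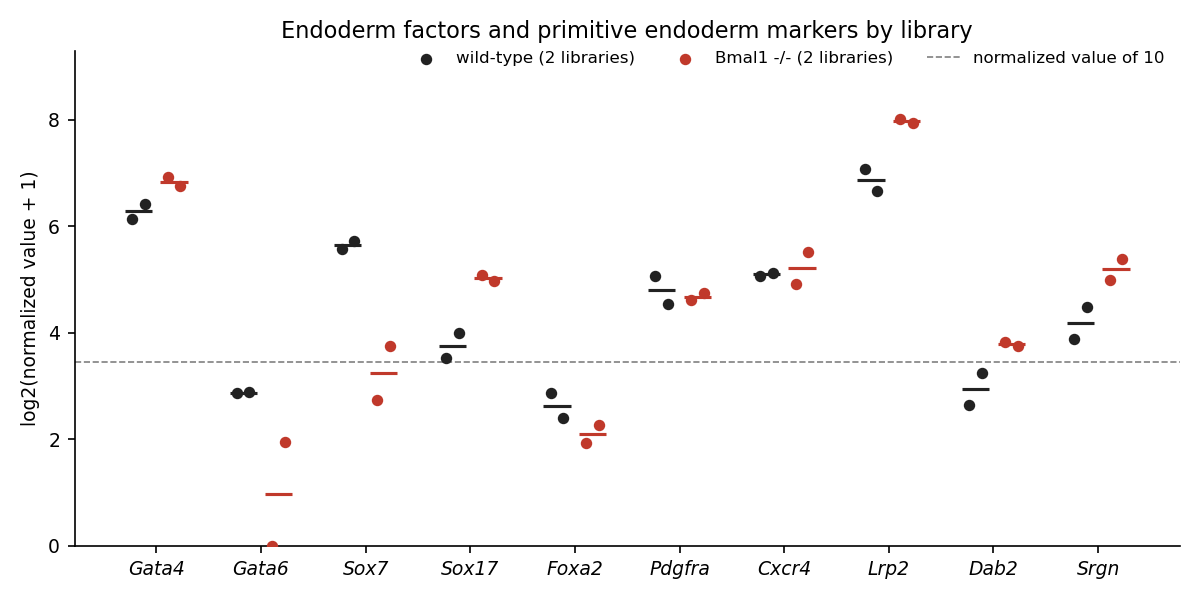
Normalized values of the 10 members on a log2(value + 1) scale in 2 wild-type (black) and 2 Bmal1 -/- libraries (red), where points are libraries, horizontal bars are means of the plotted log2 values and the dashed line is a value of 10. Sox7 falls from 46.4 and 52.1 to 5.64 and 12.4, Sox17, Lrp2, Srgn and Gata4 lie higher in both Bmal1 -/- libraries, and Gata6 and Foxa2 stay under 10 in all 4.

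Sox7, a SoxF transcription factor of primitive endoderm and of endothelial and blood progenitors, showed the largest difference among the members. Its normalized values were 46.4 and 52.1 in wild-type libraries against 5.64 and 12.4 in Bmal1 -/- libraries, from 44, 49, 6 and 13 reads. Both Bmal1 -/- libraries lay far below both wild-type libraries, and the groups did not overlap. The mean fell from 49.2 ± 4.03 to 9.02 ± 4.78 (SD, n = 2 libraries each), 5.46-fold lower, with a log2 fold change of −2.41 (95% interval −3.12 to −1.70, limma adjusted p = 6.0e-06). Leaving out either Bmal1 -/- library moved it to −1.90 (without replicate 1) or −2.92 (without replicate 2), and the adjusted p was under 0.05 under every alternative that tested the gene, with 0.025 the highest value. Sox7 (ENSMUSG00000063060) lies on mm9 chromosome 14 from 64562511 to 64569569, plus strand. The primers of the study's RT-qPCR assay are shown because they mark the stretch of the transcript that this assay reads, which lies in coding exon 2 of Sox7-201, at chr14:64566782-64566800 on the plus strand and chr14:64566824-64566843 on the minus strand of NCBIM37.
Sox7 forward primer: cacgctgcctgagaaaaac
Sox7 reverse primer: gggagtactcacccctgtcc

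Sox17, the other SoxF factor among the members and a regulator of both primitive and definitive endoderm, went the opposite way. Normalized values were 10.5 and 14.9 in wild-type libraries against 32.9 and 30.5 in Bmal1 -/- libraries, from 10, 14, 35 and 32 reads. Both Bmal1 -/- libraries lay well above both wild-type libraries, without overlap. The mean rose from 12.7 ± 3.07 to 31.7 ± 1.67 (SD, n = 2 each), 2.50-fold, with a log2 fold change of 1.27 (95% interval 0.62 to 1.93, limma adjusted p = 0.0020). It fell under 2-fold with a pseudocount of 10 (0.88) and with quantile normalization (0.97), both with an adjusted p under 0.05. Sox17 (ENSMUSG00000025902) lies on mm9 chromosome 1 from 4481009 to 4486494, minus strand. Sox18, the remaining SoxF gene and a vascular regulator, had values of 9.48 and 14.9 in wild-type and 21.6 and 21.9 in Bmal1 -/- libraries, and it did not pass the test (log2 fold change 0.82, adjusted p = 0.055), though it passed under 5 alternatives. It was named for its family after its values were seen.

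**Figure D2:**
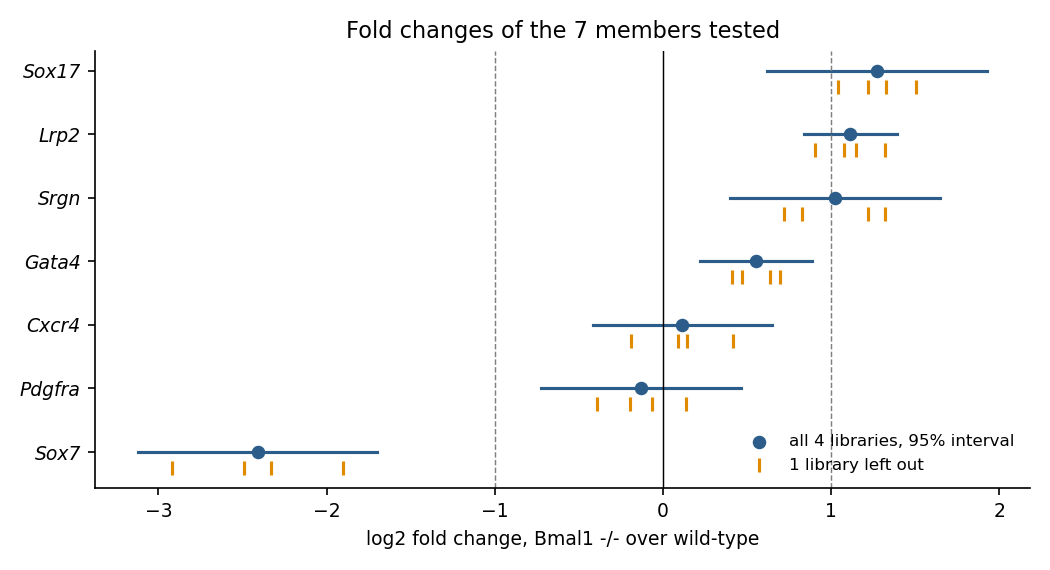
Log2 fold changes (Bmal1 -/- over wild-type, on log2(value + 1)) of the 7 members tested, with 95% intervals from limma and, as orange ticks, the 4 estimates with 1 library left out; dashed lines mark 2-fold. Sox7 stands at −2.41, 4 members lie above 0 with intervals that do not reach it, and the intervals of Cxcr4 and Pdgfra include 0.

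Gata4 and Gata6 are zinc finger factors that can each drive mESCs into primitive endoderm when forced on. Gata4 (ENSMUSG00000021944, mm9 chromosome 14 from 63817759 to 63890529, minus strand) showed normalized values of 69.5 and 85.0 in wild-type and 120.2 and 107 in Bmal1 -/- libraries. The groups did not overlap, though the gap between them was of the same order as the distance between replicates. The mean rose from 77.3 ± 10.9 to 114 ± 9.50 (SD, n = 2 each), 1.47-fold, with a log2 fold change of 0.55 (95% interval 0.22 to 0.89, limma adjusted p = 0.0061). The call was lost in DESeq2 (adjusted p = 0.067), with no filter on low values (0.068), with quantile normalization (0.054) and without Bmal1 -/- replicate 1 (0.087).

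Gata6 (ENSMUSG00000005836, mm9 chromosome 18 from 11052508 to 11085633, plus strand) was near the limit of detection. Its libraries held 6 and 6 reads in wild-type and 0 and 3 in Bmal1 -/-, which are normalized values of 6.32, 6.37, 0 and 2.86. The wild-type values were higher, from few reads. The ratio of the summed reads, scaled by library, was 4.47 wild-type over Bmal1 -/- (exact 95% interval 1.21 to 24.7, which covers counting error only). When the filter was lowered to a mean of at least 1, the limma adjusted p was 0.080.

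The list of other Gata factors and Fog partners held 6 genes, of which 3 were tested, with 1 higher, 1 lower and a median log2 fold change of 0.12. This median was −0.12 with quantile normalization and between −0.04 and 0.28 with 1 library left out. Here and in the other lists, the top gene is the one with the highest mean value over the 4 libraries, not scaled by length. Gata2, a factor of blood progenitors and trophoblast, fell from 101 and 138 in wild-type to 33.8 and 42.0 in Bmal1 -/- libraries (log2 fold change −1.62, adjusted p = 7.4e-07). Zfpm1 (Fog1), a cofactor that binds Gata proteins, was the top gene and rose from 212 and 249.6 to 311 and 317 (0.45, adjusted p = 8.6e-04). Neither pair of groups overlapped. Gata5 was at 0 in all 4 libraries, and the values of Gata1 and Gata3 were between 5.31 and 12.6.

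Foxa2, a forkhead factor of definitive endoderm, node and visceral endoderm, was under the filter. The libraries held 6 and 4 reads in wild-type and 3 and 4 in Bmal1 -/-, at normalized values of 6.32, 4.25, 2.82 and 3.81. The wild-type values were higher without overlap, from few reads. The ratio of summed reads was 1.60 wild-type over Bmal1 -/- (exact 95% interval 0.55 to 4.94). With the filter at a mean of at least 1 the limma adjusted p was 0.39, so the difference did not pass. Foxa2 (ENSMUSG00000037025) lies on mm9 chromosome 2 from 147868613 to 147872705, minus strand.

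Of 11 other endoderm transcription factors, 8 were tested, and 2 were higher, 2 lower and 4 did not pass, with a median log2 fold change of 0.27 (0.12 with quantile normalization and −0.15 over the 3 genes left with the filter at 100). Over all alternatives the number higher was between 0 and 3 and the number lower between 1 and 2. Foxa3, a forkhead factor of liver and gut, fell from 21.1 and 30.8 to 12.2 and 6.68 (log2 fold change of −1.40, adjusted p = 0.0038). Foxa3 passed the filter through its wild-type libraries alone. Its groups did not overlap, but the call was lost with no filter, without the trend, in DESeq2 and without Bmal1 -/- replicate 2 (adjusted p between 0.055 and 0.078). Hhex, a homeobox factor of anterior endoderm, was the top gene, at 284 and 269.8 in wild-type and 309 and 343 in Bmal1 -/- libraries (0.23, adjusted p = 0.041), a call lost under 7 alternatives. Hnf4a (0.90, adjusted p = 0.023, lost under 5 alternatives) and Eomes (−0.83, adjusted p = 4.1e-06) completed the counts. Genes outside the naming rule that complete a small count, here and in the other lists, were named after their values were seen. Gata5 and Hnf4g were at 0 in all 4 libraries.

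Among the surface receptors, Pdgfra, the Pdgf receptor that marks primitive endoderm precursors, showed normalized values of 32.7 and 22.3 in wild-type and 23.5 and 25.7 in Bmal1 -/- libraries. Both Bmal1 -/- values lay within the range of the wild-type libraries. The log2 fold change was −0.13 (95% interval −0.73 to 0.46, limma adjusted p = 0.73), and it was 0.13 without wild-type replicate 1. Pdgfra (ENSMUSG00000029231) lies on mm9 chromosome 5 from 75548316 to 75594229, plus strand. The second Pdgf receptor, Pdgfrb, which marks mesenchymal and perivascular cells, rose from 74.8 and 80.7 to 204 and 234 (1.48, adjusted p = 1.4e-08), with no overlap between groups. Pdgfa, a ligand of Pdgfra made by epiblast cells, was the top gene of the list, at 1827 and 1972 in wild-type and 1744 and 1744 in Bmal1 -/- libraries (−0.12, adjusted p = 0.0496), a call lost under 12 alternatives. With 1 library left out, the log2 fold change of Pdgfa was between −0.18 and −0.07. Of the 4 genes tested among 5, Pdgfrb was higher and Pdgfa lower.

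Cxcr4, the receptor of the chemokine Cxcl12 and a surface marker of definitive endoderm, showed normalized values of 32.7 and 34.0 in wild-type and 29.1 and 44.8 in Bmal1 -/- libraries. The Bmal1 -/- libraries lay on both sides of the wild-type libraries. The log2 fold change was 0.11 (95% interval −0.42 to 0.65, limma adjusted p = 0.73), and it was −0.14 after quantile normalization and −0.19 without Bmal1 -/- replicate 2. Cxcr4 (ENSMUSG00000045382) lies on mm9 chromosome 1 from 130484776 to 130488870, minus strand. Cxcl12 was under the filter, with 9.48 and 8.50 in wild-type and 1.88 and 4.77 in Bmal1 -/- libraries. Cxcr7 (the symbol in the annotation for Ackr3), the second receptor of Cxcl12, had 494 and 428 in wild-type and 397 and 363 in Bmal1 -/- libraries (−0.27, adjusted p = 0.011), a call lost under 6 alternatives, among them DESeq2 (0.14). With 1 library left out, the log2 fold change of Cxcr7 was between −0.38 and −0.17.

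The Fgf input to primitive endoderm was read from transcripts alone, which were present in all libraries. Fgf4, the ligand that epiblast cells secrete, was the top of its 4 genes, at 5528 and 5743 in wild-type and 5082 and 5261 in Bmal1 -/- libraries. The groups did not overlap, and the difference was small (log2 fold change −0.12, adjusted p = 0.016, lost under 7 alternatives). The receptors Fgfr1 (−0.20, adjusted p = 9.5e-04, lost without the trend) and Fgfr2 (−0.78, adjusted p = 0.018, lost under 5 alternatives) were also lower. The adaptor Grb2 did not pass (0.10, adjusted p = 0.069), though it passed under 6 alternatives. Over all alternatives, between 1 and 3 of these genes were lower and between 0 and 1 higher, with 1 lower in DESeq2, with no filter, without the trend and without Bmal1 -/- replicate 1.

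Lrp2 (megalin), the large endocytic receptor of visceral endoderm and kidney tubule, was higher in Bmal1 -/- libraries. Its normalized values were 134 and 99.9 in wild-type and 257 and 245 in Bmal1 -/- libraries. Both Bmal1 -/- libraries were far above both wild-type libraries. The mean rose from 117 ± 24.0 to 251 ± 8.71 (SD, n = 2 each), 2.15-fold, with a log2 fold change of 1.11 (95% interval 0.84 to 1.39, limma adjusted p = 6.6e-07). The adjusted p was under 0.05 under all 16 alternatives run, while the log2 fold change was 0.90 without wild-type replicate 2. Lrp2 (ENSMUSG00000027070) lies on mm9 chromosome 2 from 69262397 to 69424122, minus strand.

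Dab2, the clathrin adaptor that carries Lrp2 into the cell, fell just short of the filter. Its libraries held 5 and 8 reads in wild-type and 14 and 13 in Bmal1 -/-, at normalized values of 5.27, 8.50, 13.2 and 12.4. The Bmal1 -/- libraries were higher without overlap. The ratio of summed reads was 1.86 Bmal1 -/- over wild-type (exact 95% interval 0.93 to 3.92), and with the filter at a mean of at least 1 the limma adjusted p was 0.12. Dab2 (ENSMUSG00000022150) lies on mm9 chromosome 15 from 6249788 to 6390712, plus strand. Another identifier with the symbol Dab2, inside it on the same strand, was at 0 in all libraries, and whether reads in the shared stretch went uncounted was not tested.

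Endocytic partners of Lrp2 and Dab2 included genes higher and genes lower. Of 14 genes 12 were tested, with 6 higher, 4 lower and a median log2 fold change of 0.09 (0.04 to 0.15 with 1 library left out). The number higher was 4 with no filter, without the trend and without Bmal1 -/- replicate 1, and the number lower was 4 under all 16 alternatives run. The log2 fold changes of those that passed were between −0.40 and 0.84. Cltc, the clathrin heavy chain, was the top gene and rose from 15305 and 15339 to 18788 and 19086 (0.31, adjusted p = 7.1e-07). The 4 lower genes were the clathrin light chains Clta and Cltb and the adaptor subunits Ap2m1 and Ap2s1, with log2 fold changes from −0.40 to −0.26. Cubn and Amn, the coreceptors that work with Lrp2 in visceral endoderm, were under the filter, with Cubn at 6.32 and 0 in wild-type and 1.88 and 0 in Bmal1 -/- libraries and Amn at 4.21 and 6.37 against 8.45 and 10.5.

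Srgn (serglycin), a proteoglycan of secretory granules that is also made by parietal endoderm, showed normalized values of 13.7 and 21.2 in wild-type and 31.0 and 41.0 in Bmal1 -/- libraries, from 13, 20, 33 and 43 reads. The groups did not overlap, and the distance between them was close to the distance between replicates. The mean rose from 17.5 ± 5.34 to 36.0 ± 7.07 (SD, n = 2 each), 2.06-fold, with a log2 fold change of 1.02 (95% interval 0.40 to 1.64, limma adjusted p = 0.0071). The call was lost in DESeq2 (adjusted p = 0.083), with no filter (0.087), without the trend (0.059), with quantile normalization (0.057) and without Bmal1 -/- replicate 2 (0.12), and the log2 fold change was 0.72 without wild-type replicate 1 and 0.75 with a pseudocount of 10. Srgn (ENSMUSG00000020077) lies on mm9 chromosome 10 from 61956581 to 61990199, minus strand.

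Bmal1 binds DNA with its partner Clock at the E-box CACGTG, which is its own reverse complement, so promoters were searched for these letters and for the wider form CANNTG, which includes it and also reads the same way on both strands. RefSeq promoter entries (GRCm38.p6, the 250 bases before each start) matched 6 of the members, Cxcr4, Dab2, Foxa2, Lrp2, Pdgfra and Srgn, with 10 starts. Sox7, Sox17 and Gata4 were without an entry, and Gata6 was not searched. CACGTG was in 0 of the 10 windows and in 6.02% of the 32851 windows of all genes, and CANNTG was in 6 of the 10 and in 66.2% of all. A window without these letters says nothing of binding elsewhere. The promoters of Lrp2 and Srgn are printed because these members were both more than 2-fold higher in Bmal1 -/- libraries, and every CANNTG is in capitals. That of Lrp2 is chr2:69586030-69586279 on the minus strand and holds 2 matches. The 2 starts of Srgn are at chr10:62527446-62527695, with 2 matches, and chr10:62507758-62508007, with 3, both on the minus strand.
Lrp2 promoter: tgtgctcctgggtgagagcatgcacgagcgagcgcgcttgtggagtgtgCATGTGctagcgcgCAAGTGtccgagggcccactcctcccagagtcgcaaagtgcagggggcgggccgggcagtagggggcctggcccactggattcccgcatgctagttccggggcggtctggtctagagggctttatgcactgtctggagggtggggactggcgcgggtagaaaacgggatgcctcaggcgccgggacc
Srgn promoter, upstream start: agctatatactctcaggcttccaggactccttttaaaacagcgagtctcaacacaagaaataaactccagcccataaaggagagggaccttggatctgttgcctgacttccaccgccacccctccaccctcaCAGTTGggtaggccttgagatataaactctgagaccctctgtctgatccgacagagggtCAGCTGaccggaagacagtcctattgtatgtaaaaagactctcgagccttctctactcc
Srgn promoter, downstream start: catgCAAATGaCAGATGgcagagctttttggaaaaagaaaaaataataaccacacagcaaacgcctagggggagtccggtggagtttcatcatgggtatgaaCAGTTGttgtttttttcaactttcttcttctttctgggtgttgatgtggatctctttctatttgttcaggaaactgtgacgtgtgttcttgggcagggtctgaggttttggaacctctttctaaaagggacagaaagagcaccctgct

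Levels of different genes were compared per kb of annotated exon. In wild-type libraries Gata4 (mean 19.8 per kb) and Cxcr4 (18.4) were highest, and their libraries overlapped. Sox7 followed at 14.9, then Srgn (7.96) and Lrp2 (7.0), which overlapped each other, and Pdgfra (4.08) and Sox17 (4.03), which also did. Foxa2 (2.23), Gata6 (1.99) and Dab2 (0.94) were lowest, and Foxa2 and Gata6 overlapped. In Bmal1 -/- libraries Gata4 was again highest (29.0 per kb), above Cxcr4 (20.4), Srgn (16.4) and Lrp2 (15), of which each overlapped its neighbour in that order. Sox17 came after these at 10.1, apart from Lrp2 and Pdgfra. Pdgfra (3.65), Sox7 (2.73) and Dab2 (1.74) came next, each overlapping its neighbour, followed by Foxa2 (1.40) and Gata6 (0.45). The SoxF pair thus changed places, with Sox7 above Sox17 in both wild-type libraries and below it in both Bmal1 -/- libraries. For scale, Gata4 was at percentile 51.0 and Gata6 at percentile 19.8 of genes above 0 by mean level per kb, and the naive factor Tcfcp2l1 had a mean of 3308 per kb.

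**Figure D3:**
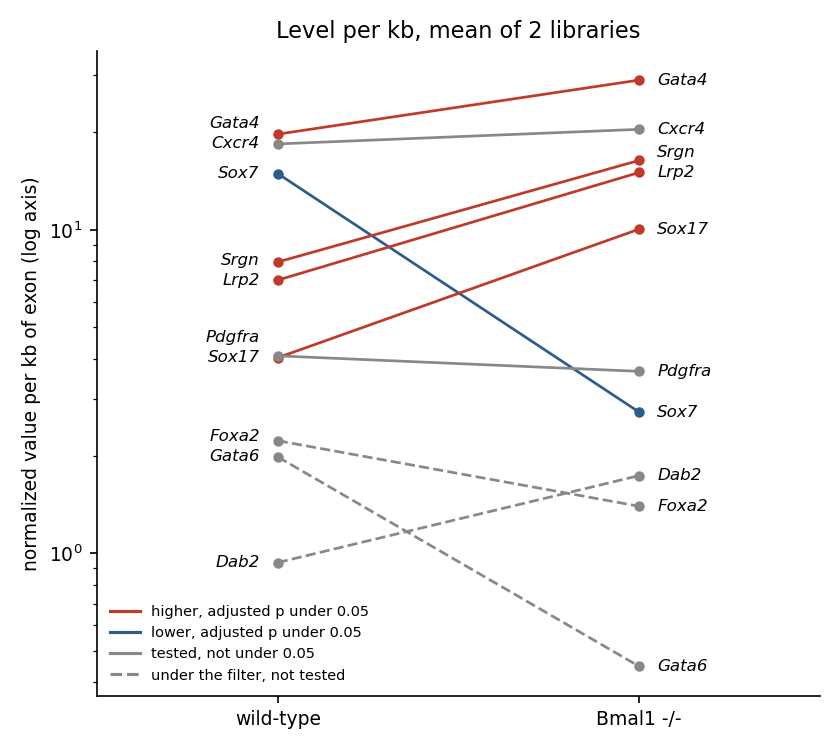
Normalized value per kb of exon (log axis, mean of 2 libraries) of each member in wild-type and Bmal1 -/- libraries, with red lines for members higher and a blue line for the member lower at an adjusted p under 0.05, grey lines for members not passing and dashed lines for members under the filter. Sox7 drops from 14.9 to 2.73 and crosses Sox17, which climbs from 4.03 to 10.1.

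Genes of the differentiated layers were read beside the members. Of 19 visceral endoderm markers, 18 were matched and 6 passed the filter, with 3 higher, 1 lower and a median log2 fold change of 0.96. That median holds for these 6 genes, as it was −0.03 over the 11 genes with a mean of at least 1 and −0.23 over the 13 genes with any read. Its middle values were those of Cited1 and Rbp4. Rbp4 had 8.43 and 8.50 in wild-type and 13.2 and 12.4 in Bmal1 -/- libraries. It was not called, and it passed the filter through its Bmal1 -/- libraries alone. Apom, an apolipoprotein, rose from 52.7 and 66.9 to 173 and 175 (log2 fold change of 1.54, adjusted p = 6.2e-08). Cited1, a transcriptional coregulator, rose from 159 and 157 to 411 and 411 (1.37, adjusted p = 2.6e-10). Neither pair of groups overlapped. Apob, the core protein of lipoprotein particles, had 3.16 and 7.44 against 19.7 and 18.1 (1.75, adjusted p = 0.0027; 0.058 with no filter) and passed the filter through its Bmal1 -/- libraries. Lefty1, a Nodal antagonist also made by mESCs, was the top gene and fell from 958 and 1083 to 618 and 606 (−0.73, adjusted p = 1.7e-08). Ttr, Apoa4, Cer1, Spp2 and Spink3 were at 0 in every library, and Afp and Trf had no more than 3 reads in any. The summed normalized value of the list was 1229 and 1382 in wild-type and 1282 and 1266 in Bmal1 -/- libraries, and the groups overlapped. Most of this sum was Lefty1, the gene called lower, and without it the sum was 272 and 298.5 against 664 and 660, with no overlap. Cited1 and Apom made up most of that remainder in every library and most of its rise, so it mainly restates these genes.

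Of 19 genes of parietal endoderm and basement membrane, 17 were tested, with 8 higher, 3 lower and a median log2 fold change of 0.31. Lamb1, a laminin chain, rose from 608 and 603 to 1598 and 1648 (log2 fold change of 1.42, adjusted p = 3.6e-14). The collagen IV chains Col4a1 (143 and 147 to 409.6 and 382; 1.44, adjusted p = 2.2e-10) and Col4a2 (65.3 and 78.6 to 202 and 224; 1.56, adjusted p = 1.4e-08) were higher as well. In these 3 genes the groups were far apart relative to the replicates. Snai1, a repressor active in epithelial to mesenchymal transition, rose from 47.4 and 30.8 to 105 and 83.9 (1.28, adjusted p = 4.3e-05). The top gene, Lamc1, another laminin chain, rose from 12358 and 11408 to 20548 and 19852 (0.77, adjusted p = 4.5e-12). Vim, the intermediate filament vimentin, fell from 3626 and 3458 to 1117 and 1106 (−1.67, adjusted p = 2.0e-16), and the other lower genes were the collagen chaperone Serpinh1 (−0.86) and the linker Nid2 (−0.34). The summed value of the list was 47876 and 45557 in wild-type and 58100 and 56469 in Bmal1 -/- libraries, and without Lamc1 it was 35517 and 34149 against 37551.5 and 36617. Most of these matrix genes are also expressed by mESCs.

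Over all 8 endoderm lists, without the members and with shared genes counted in 1 list only, 55 of 76 genes were tested, and 21 were higher, 16 lower and 18 did not pass, where 24% and 28.6% of all genes tested were higher and lower. Past 2-fold, 8 were higher and 3 lower, against 5.75% and 1.45% of all genes tested. Among these, Apob passed the filter through its Bmal1 -/- libraries alone and Foxa3 through its wild-type libraries alone. The lists were also chosen with earlier results of these data known, so these counts are not independent of them. The median log2 fold change was 0.13, and it was between 0.10 and 0.19 over all alternatives, with 15 to 23 genes higher and 11 to 16 lower.

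**Figure D4:**
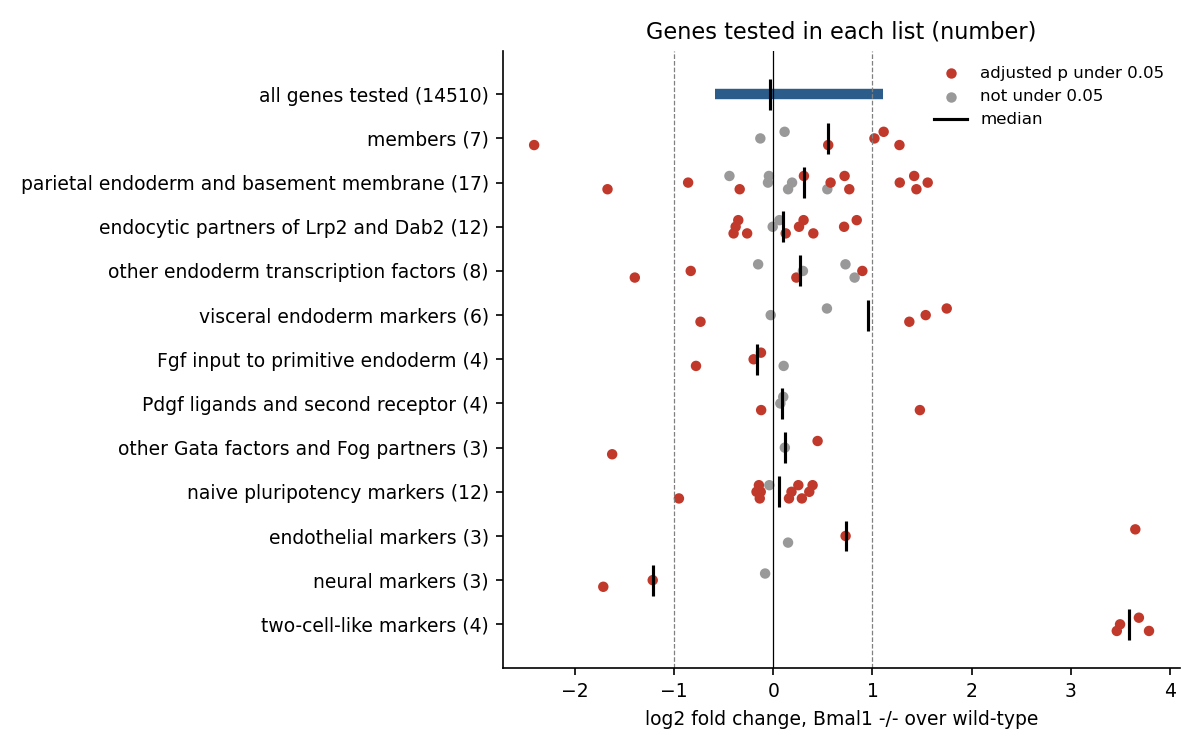
Log2 fold changes of the genes tested among the members and in the lists shown, with the number tested in parentheses, where red points have an adjusted p under 0.05, vertical bars are medians and the blue bar spans percentile 5 to percentile 95 of all 14510 genes tested (−0.59 to 1.11). The members range from −2.41 to 1.27, parietal endoderm genes lie on both sides of 0, and the 2-cell-like genes lie between 3.46 and 3.79.

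Gata4 and Sox7 lie 671981 bases apart on chromosome 14, which was noticed after their values were seen. Between them the table lists 9 genes, of which 5 were tested. Tdh (log2 fold change −0.46, adjusted p = 3.0e-09) and Pinx1 (−0.27, adjusted p = 0.013, lost under 7 alternatives) were lower, and the other 3 did not pass. With 1 library left out, the log2 fold change of Pinx1 was between −0.41 and −0.12. The opposite differences of Gata4 and Sox7 thus stood at the ends of an interval whose tested genes had log2 fold changes between −0.46 and 0.09.

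The genes with the most similar profile were found for the 4 members past both thresholds, by the Euclidean distance between centred log2(value + 1) profiles over the 4 libraries. Nearest to Sox7 was Lfng, a glycosyltransferase that modifies Notch (distance 0.35), with values of 35.8 and 31.9 in wild-type and 4.70 and 9.54 in Bmal1 -/- libraries, which passed the filter through wild-type alone. Myb (0.61) and the long non-coding RNA 2610037D02Rik (0.67) followed. Nearest to Sox17 were Muc13 (0.11), Prrx2 (0.12) and Papolb (0.12). Muc13, an epithelial mucin, had 10.5 and 13.8 against 31.9 and 27.7. Nearest to Lrp2 were Tanc2 (0.06), 9930021J03Rik (0.07) and Iqca (0.07), and Tanc2 had 109 and 83.9 against 221 and 200.2. Nearest to Srgn were Fat2 (0.13), Tbx2 (0.14) and C530008M17Rik (0.16), and Tbx2, a T-box repressor, had 11.6 and 15.9 against 26.3 and 32.4. All 12 had an adjusted p under 0.05, which the choice of profile favours, and the call was lost under 7 alternatives for Fat2, 4 for Tbx2, 3 for C530008M17Rik and 1 for Muc13.

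Markers of other cell states were read in the same libraries. All 12 naive pluripotency markers were tested, 6 higher and 5 lower with a median log2 fold change of 0.06, and over all alternatives 4 to 6 were higher, 1 to 5 lower and the median between 0.04 and 0.12. Tcfcp2l1 (Tfcp2l1) was the top gene and rose from 27883 and 25102 to 34380 and 35269 (0.40, adjusted p = 2.4e-07). The summed value of the list was 124247 and 121109 in wild-type and 130702 and 132476 in Bmal1 -/- libraries, so markers of the labelled cell type were abundant in all 4. Among 6 markers of 2-cell-like cells, a state that rare mESCs enter, 4 were matched, and all 4 were more than 2-fold higher in Bmal1 -/- libraries. Zscan4c had 43.2 and 60.5 in wild-type and 730 and 709 in Bmal1 -/- libraries (3.79, adjusted p = 4.4e-15), and Zscan4d, Zscan4f and Zfp352 had log2 fold changes of 3.50, 3.69 and 3.46. The Zscan4 genes are near-identical copies that can share reads, so their single values are uncertain. The summed value of the 4 genes was 134 and 156 in wild-type and 1869 and 1793 in Bmal1 -/- libraries, and the part of these cells in the differences of the members was not tested.

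Of 7 endothelial markers 3 were tested and 2 were higher. Tie1, a receptor of endothelium, rose from 65.3 and 71.2 to 918 and 819 (log2 fold change of 3.65, adjusted p = 1.4e-16), and Pecam1, which mESCs also express, was the top gene and rose from 1767 and 1798 to 2885 and 3028 (0.73, adjusted p = 7.3e-11). Tek, the angiopoietin receptor, had 118 and 142 against 147 and 141 and did not pass (0.15, adjusted p = 0.37; 0.01 without wild-type replicate 1). The other markers were at or near 0, with Emcn at 0, Cdh5 and Erg at no more than 3 reads in any library, and Kdr between 1.06 and 9.39. The summed value was 1958 and 2015 in wild-type and 3963 and 3997 in Bmal1 -/- libraries, most of it from Pecam1. Of 4 neural markers, 3 were tested and 2 were lower, Tubb3 (2785 and 2512 to 1192 and 1088; −1.22, adjusted p = 5.7e-13), the top gene, and Pax6 (45.3 and 24.4 to 9.39 and 9.54; −1.71, adjusted p = 3.4e-04), which passed the filter through wild-type alone, while Fabp7 was at 0 in every library. The summed value was 3751 and 3486 in wild-type and 2099 and 1967 in Bmal1 -/- libraries.

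Markers of blood cells, fibroblasts and trophoblast were mostly low. Of 7 blood cell markers, 3 were tested and Laptm5, the top gene, was lower (3141 and 3002 to 2787 and 2734; log2 fold change of −0.15, adjusted p = 0.0066, lost under 5 alternatives), while Tyrobp was at 0 and Ptprc had at most 1 read in any library. Of 8 fibroblast markers, 3 were tested and Thy1, the top gene, was higher (33.7 and 42.5 to 53.5 and 62.0; 0.59, adjusted p = 0.026, lost under 8 alternatives), while Dcn and Lum were at 0 and Col3a1 had at most 1 read. Of 6 trophoblast markers, 3 were tested and Cdx2 was lower (−0.74, adjusted p = 0.0043, lost in DESeq2), while the top gene, Tcfap2a, had 73.7 and 59.5 against 86.4 and 64.8 and did not pass (0.17, adjusted p = 0.46; −0.04 with quantile normalization and −0.03 without Bmal1 -/- replicate 1). Their summed values in wild-type and Bmal1 -/- libraries were 3220.5 and 3092 against 2864 and 2823 for blood cells, 94.8 and 108 against 142 and 124 for fibroblasts, and 165 and 153 against 148 and 139 for trophoblast. The part of endothelial, neural, blood, fibroblast or trophoblast markers in the differences of the members was not tested.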

How the data were processed

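Messenger RNA was sequenced from 2 wild-type and 2 Bmal1 -/- libraries made with a stranded kit. The authors removed adapters with cutadapt 1.9.1 after bcl2fastq 2.18.0.12, aligned reads to mm9 with STAR 2.5.2b, and deposited a table of signal per gene, which is read counts after TMM normalization. The counting tool and strand setting are not given in the sources used here. Whole reads were recovered from all deposited values within 0.01 of a read. Differences were tested with limma 3.58.1 (moderated variances with a trend) in R 4.3.3 on log2(value + 1). Genes averaging under 10 were left out, and p-values were adjusted by the Benjamini-Hochberg method. A call needed an adjusted p under 0.05, and past both thresholds also means an absolute log2 fold change above 1. Recovered reads were also tested with edgeR 4.0.16 and DESeq2 1.42.0. Other alternatives were filters, pseudocounts, scalings, a replicate block and leaving out each library. The tests were run on simulated data as a check of their working, which does not measure how often the calls given here are wrong. Sums and figures were made in Python 3.11.15. Named genes were all 10 members, Arntl, the genes of each list past both thresholds, its gene with the highest mean value, and the 3 tested genes nearest in profile to each member past both thresholds. Any other gene was named after its values were seen. The setting with no filter left out the 13712 genes at 0 in every library. The members and lists were chosen with earlier results of these data known. Symbols were matched through the annotation, 4 of them through an older symbol (Cxcr7, Tcfcp2l1, Sfpi1 and Tcfap2a), and where a symbol had several identifiers the longest was used. Rhox5, Tcstv1 and Tcstv3 were unmatched and not analysed here. A further planned library scaling, a reference list and a gene of the endoderm lists are not reported, and counts and ranges leave them out. Intervals of read ratios are exact (Clopper-Pearson) and cover counting error only.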

Additional observations from a re-analysis of the deposited data

How the results depend on the processing

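The counts of genes and 67 named genes were recomputed under 16 alternatives, of which edgeR and DESeq2 change the model and the scaling together, and genes below a mean of 100 have no value with the filter at 100. Over these genes, 936 of 1045 comparisons had the same direction and the same side of the threshold, 93 had the same direction without passing, 11 passed where the test had not, and 5 had the opposite direction. The opposite directions were Cxcr4 with quantile normalization (−0.14) and without Bmal1 -/- replicate 2 (−0.19), Pdgfra without wild-type replicate 1 (0.13), and Tcfap2a with quantile normalization (−0.045) and without Bmal1 -/- replicate 1 (−0.030). With 1 library left out these log2 fold changes ranged from −0.19 to 0.42 for Cxcr4, −0.40 to 0.13 for Pdgfra and −0.030 to 0.38 for Tcfap2a. The number of members with an adjusted p under 0.05 was 5, and it was 3 with no filter, 3 with quantile normalization, 3 in DESeq2, 4 without the trend and 1 with the filter raised to 100, where 1 member was tested. The share of all genes tested that passed was 52.6%, and it was 23.9% with no filter, 49.9% with quantile normalization, 36.0% in DESeq2, 34.9% without the trend and 61.0% with the filter at 100. The number also past 2-fold was 4, and it was 2 with a pseudocount of 10, 2 with quantile normalization, 3 with no filter, without the trend and in DESeq2, and 1 with the filter at 100, while the share of all genes was 7.21%, and 4.85%, 6.79%, 5.09%, 6.37%, 5.94% and 3.03% in the same order. Of all genes, 318 were past both thresholds with the filter at 100, against 1046, and 5060 had an adjusted p under 0.05 without the trend, against 7639. Apart from the filter, the cause was not tested. With 1 library left out, 956 to 1115 genes and 3 to 4 members were past both thresholds, 5821 to 7560 genes and 4 to 5 members had an adjusted p under 0.05, and the lone library was assumed to vary like the other group. With a replicate block 1056 genes and 4 members were past both thresholds, and the labels number the experiments alike in both groups without saying that a number marks a shared day or batch, while deviations of libraries with the same experiment number had a correlation of −0.02 across 14510 genes, which are not independent replicates. Gata6, Foxa2 and Dab2 lay under the filter and rest on 0 to 14 reads in a library, and their intervals cover counting error only.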
